A study of Saccharomyces cerevisiae with 6 samples.

Results

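The cell wall genes described here are 33 genes of the budding yeast Saccharomyces cerevisiae that encode wall proteins, the enzymes that make and remodel wall glucan and chitin, and the signalling proteins that watch over the wall. They were taken by gene symbol from a written list, drawn up with earlier results of these data known, and all 33 were found among the 5449 genes with a named probe set. Each was read from 1 probe set, and 0 of these sets were of the type that can bind several transcripts. The compared strains were H4R45H, whose histone H4 has histidine in place of arginine at the residue its name gives, and WY139, the wild type, with 3 one-colour Affymetrix arrays of total RNA each. Both strains were grown in YPD, a rich glucose medium, to mid-log phase, and the labels give no treatment that sets them apart. Further genotype, mating type and ploidy are not given in the sources used here. No label ties replicates to separate cultures, so the p-values below reflect the variation among 3 arrays a strain, part or all of which may be technical.

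The yeast wall is a mesh of beta-1,3-glucan, short beta-1,6-glucan and a little chitin, covered by mannoproteins that are anchored to the glucan. When the wall is stretched or damaged, sensors of the Wsc and Mid2 type act through the GTPase Rho1 and protein kinase C on a chain of MAP kinases, Bck1, Mkk1 or Mkk2 and Slt2, and Slt2 activates the transcription factor Rlm1. This cell wall integrity pathway is known for raising a set of wall genes, among them the PIR family (proteins with internal repeats), GSC2, PST1 and CRH1. Those 7 genes (PIR1, PIR3, HSP150, CIS3, GSC2, PST1 and CRH1) are called integrity-induced below, and 17 genes of wall structure and synthesis that growing cells use throughout are called housekeeping.

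In H4R45H the wall genes did not move as a block. Of the 33 genes 12 rose, 9 fell and 12 did not pass the test, with a median log2 difference of 0.09 (H4R45H minus wild type throughout). Calls were made with limma across all probe sets at a Benjamini-Hochberg adjusted p under 0.05. Over all 5449 genes 66.2% were called, 37.1% higher and 29.1% lower, so the shares of wall genes called higher (36.4%) and lower (27.3%) were close to those of all genes, whose median difference was 0.05. That closeness holds only as deposited. After quantile normalization 17 were higher (51.5%) and 3 lower (9.09%), against 26.9% and 36.8% of all genes. After cyclic loess 18 were higher (54.5%) and 3 lower (9.09%), against 30.7% and 30.4% of all genes, and after median centring 7 were higher (21.2%) and 16 lower (48.5%), against 30.3% and 38.6%. The strains' values were fully apart for 23 of the 33 genes, against 71.5% of all genes.

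Wall genes are among the brightest on the array, and brightness moved with the strain difference. On the deposited MAS5 scale 19 of the 33 lay in the brightest 10% of probe sets, where the median difference of all genes was -0.18, with 9.26% called higher and 65.9% called lower. Rises of bright wall genes therefore ran against the direction of most genes of like signal, and small falls ran with it. Differences are given as deposited, and where another scaling of the arrays ends a call or turns its direction this is said beside the gene. Under all 4 scalings (as deposited, quantile normalization, cyclic loess and median centring), 7 wall genes were higher (PIR3, GSC2, PST1, CWP1, YGP1, CHS1 and EXG2) and 3 were lower (UTR2, GAS1 and GAS3). The same demand was met by 22.9% of all genes for higher and 22.3% for lower. At 1.5-fold or more 3 wall genes were called higher and 1 lower, against 18% and 4.29% of all genes.

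PIR3 had the largest difference among the 33 genes. Its signal was 727.8, 698.4 and 802.5 on the H4R45H arrays, against 203.2, 209.9 and 187.8 on the wild-type arrays. The strains lay far apart, with each array of H4R45H over 3 times as bright as any of wild type. PIR3 rose 3.71-fold (log2 difference 1.89, SE 0.069, adjusted p = 2.3e-08 by limma), and only 3 of the 552 genes in its class of brightness, itself included, differed as far upward. Pir proteins are secreted, carry short internal repeats and are bound directly to beta-1,3-glucan.

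The other 3 PIR genes among the 33 moved little. PIR1 had 902.2, 1013.7 and 1033.6 in H4R45H, against 900.4, 905.4 and 848.4 in wild type. One H4R45H array fell inside the wild-type range, and the difference of 0.15 (SE 0.059, adjusted p = 0.044) was just past the threshold. That call was lost after median centring (0.05), without limma's variance trend, and when any 1 array other than H4R45H replicate 1 was left out (adjusted p of 0.063 to 0.14). HSP150, also known as PIR2, averaged 1467 ± 59.6 in H4R45H and 1502 ± 28.7 in wild type (SD, n = 3 each) and was not called (difference -0.03, adjusted p = 0.51), but it was called higher after quantile normalization (0.15) and cyclic loess (0.15) and lower after median centring (-0.14). CIS3, the PIR4 gene, averaged 1146 ± 35.8 in H4R45H and 1279 ± 29.4 in wild type (SD, n = 3 each). Its difference of -0.16 (SE 0.044, adjusted p = 0.0083) was near the median of genes as bright and became -0.01 after quantile normalization and 0.01 after cyclic loess, where it was no longer called. Among the PIR genes of the 33, the wide strain difference was thus that of PIR3. PIR5, a dim gene of the family outside the 33, averaged 32.9 ± 4.88 in H4R45H and 21.4 ± 1.15 in wild type (SD, n = 3 each). It was called higher as deposited (0.61, adjusted p = 0.0017 by limma) and after median centring (0.51). PIR5 was not called after quantile normalization (-0.13) or cyclic loess (-0.01).

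GSC2 encodes the alternative catalytic subunit of beta-1,3-glucan synthase, known to be induced by wall damage, calcium, pheromone and glucose exhaustion. It had 1036.3, 987.7 and 1128.6 in H4R45H, against 308.0, 329.3 and 328.0 in wild type, with no overlap. It rose 3.26-fold (log2 difference 1.71, SE 0.061, adjusted p = 2.2e-08), and only 7 of the 555 genes in its class of brightness, GSC2 included, differed as far upward. FKS1, the subunit used in growing cells, had 708.5, 722.4 and 660.7 in H4R45H, against 805.6, 779.5 and 800.0 in wild type. Here the H4R45H arrays were the dimmer ones. FKS1 fell 1.14-fold (log2 difference -0.19, SE 0.050, adjusted p = 0.0067), close to the median of genes as bright, and this call was lost after quantile normalization (-0.09) and cyclic loess (-0.05).

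PST1, a GPI-anchored wall protein, had 940.2, 963.2 and 1085.2 in H4R45H, against 574.0, 600.0 and 522.0 in wild type. All H4R45H values were above all wild-type values, a rise of 1.76-fold (log2 difference 0.82, SE 0.069, adjusted p = 3.6e-06), and only 4 of the 540 genes in the brightest 10%, PST1 included, differed as far upward. Its relative ECM33, a GPI-anchored protein of the same family, had 1378 ± 66.4 in H4R45H and 1458 ± 24.7 in wild type (SD, n = 3 each) and was not called (-0.08, adjusted p = 0.14). ECM33 was called higher after quantile normalization and after cyclic loess (0.10 each) and lower after median centring (-0.19).

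CRH1 and UTR2 encode related transglycosylases that link chitin to glucan, and they moved in opposite directions. CRH1 had 983.9, 971.9 and 1001.1 in H4R45H, against 916.2, 885.3 and 866.5 in wild type, a small rise without overlap (log2 difference 0.15, SE 0.044, adjusted p = 0.012) that was not called after median centring (0.05). UTR2 had 559.3, 539.3 and 505.8 in H4R45H, against 1119.1, 1160.0 and 1117.5 in wild type. The groups lay far apart. UTR2 fell 2.12-fold (log2 difference -1.08, SE 0.051, adjusted p = 7.3e-08), the largest fall among the 33 genes, and only 2 of the 540 genes in the brightest 10%, UTR2 included, fell as far.

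**Figure D1:**
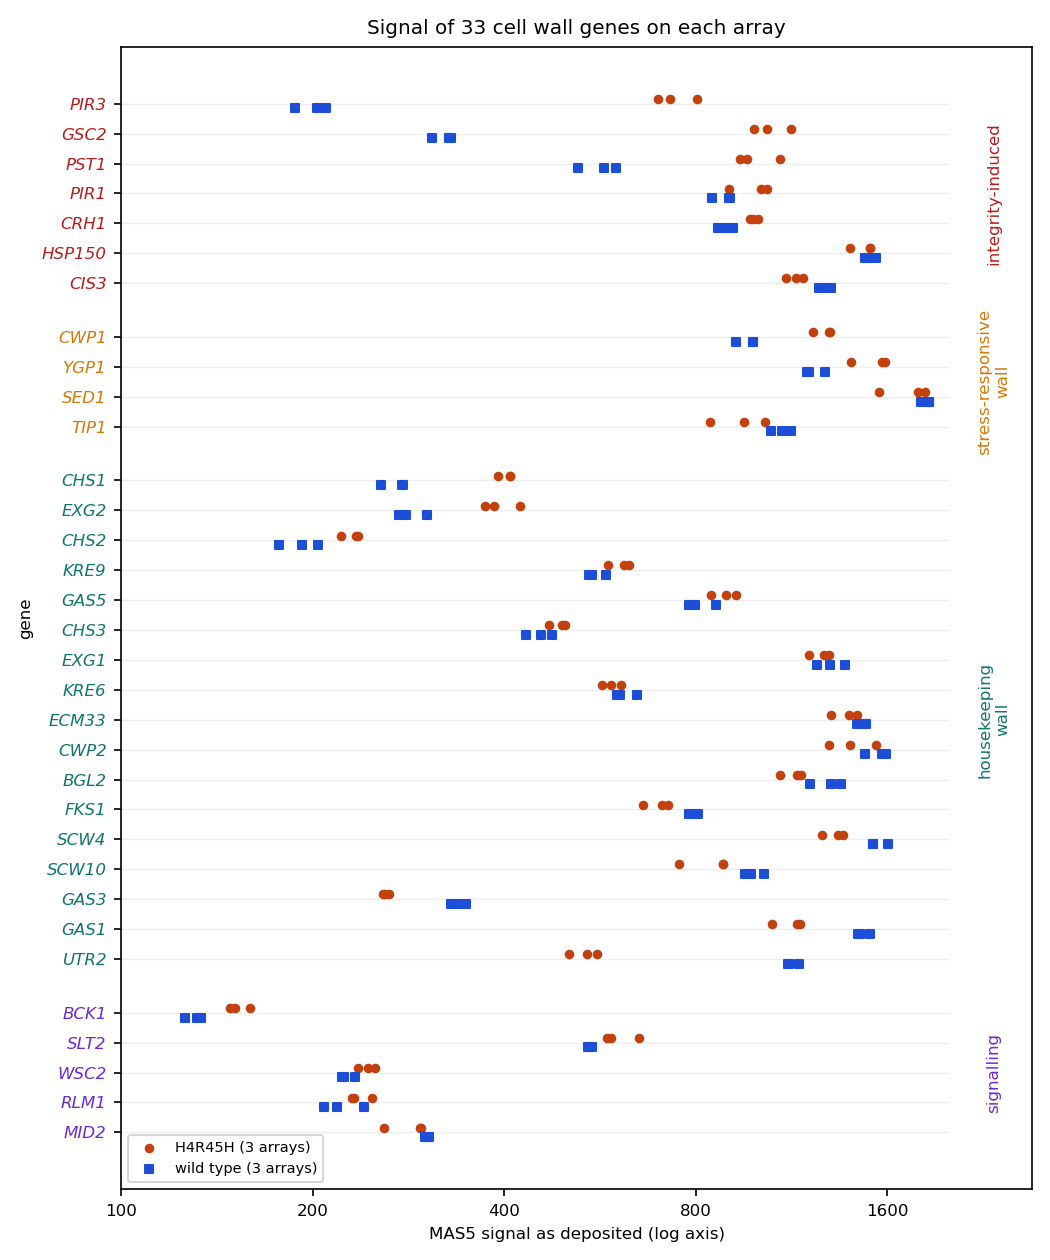
MAS5 signal of each of the 33 genes on the 3 H4R45H arrays (circles) and the 3 wild-type arrays (squares), on a log axis, with genes grouped by role. PIR3, GSC2 and PST1 stand well to the right in H4R45H and UTR2 well to the left, while HSP150, SED1 and EXG1 overlap between strains.

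The related pairs were also compared within arrays, where a common scaling factor of an array cancels. A shift that depends on brightness does not cancel where the paired genes differ in class of brightness. PIR3 and PIR1, GSC2 and FKS1, EXG2 and EXG1, and CHS1 and CHS2 differed in this way. From the 33 genes 9 pairs were formed after the values were seen, so the values are a description and no test of them is given. The strain difference of GSC2 exceeded that of FKS1 by 1.90 on the log2 scale, that of PIR3 exceeded PIR1 by 1.74, and that of CRH1 exceeded UTR2 by 1.23. PST1 exceeded ECM33 by 0.90, CWP1 exceeded CWP2 by 0.54, EXG2 exceeded EXG1 by 0.52, GAS5 exceeded GAS1 by 0.51 and CHS1 exceeded CHS2 by 0.31. In these 8 pairs the within-array ratios of the strains did not overlap. For single genes the strains' values did not overlap in 71.5% of all genes. No share over other pairs was taken, so the count is not read as a result about these pairs. For SCW10 and SCW4 the strain differences were apart by -0.00, with SD of the within-array log2 ratio of 0.18 in H4R45H and 0.076 in wild type, and the strains' ratios overlapped.

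Wall proteins known to respond to stress divided. CWP1, a mannoprotein of the outer wall, had 1223.2, 1296.2 and 1302.2 in H4R45H, against 984.4, 983.4 and 926.0 in wild type, and rose 1.32-fold (log2 difference 0.40, SE 0.047, adjusted p = 3.5e-05). YGP1, a secreted glycoprotein of starved cells, had 1404.9, 1588.7 and 1569.9 in H4R45H, against 1202.7, 1278.3 and 1197.8 in wild type, and rose 1.24-fold (log2 difference 0.31, SE 0.055, adjusted p = 0.00059). Both were without overlap, and in the brightest 10% only 22 and 28 of 540 genes differed as far upward as CWP1 and YGP1. SED1, a stress-induced structural protein, averaged 1725 ± 151 in H4R45H and 1843 ± 31.3 in wild type (SD, n = 3 each) and was not called (-0.10, adjusted p = 0.16), with a positive sign after quantile normalization (0.06) and cyclic loess (0.10) and a call of lower after median centring (-0.20). TIP1, a mannoprotein known from temperature shock, averaged 941 ± 93.4 in H4R45H and 1089.8 ± 38.7 in wild type (SD, n = 3 each). It fell 1.16-fold (log2 difference -0.22, adjusted p = 0.017), but was not called after quantile normalization (-0.07) or cyclic loess (-0.06), without the variance trend, or without wild type replicate 2 (-0.19, adjusted p = 0.061, within 0.0024 to 0.43 over its alternatives).

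Of the 17 housekeeping genes 3 rose, 7 fell and 7 did not pass, with a median of -0.08. Of the 17, 10 lay in the brightest 10%, where 65.9% of all genes were called lower, so the share of 41.2% lower was no larger than that of bright genes at large. Gas proteins, which lengthen beta-1,3-glucan chains at the cell surface, gave the clearest falls after UTR2. GAS1 had 1166.7, 1152.1 and 1054.7 in H4R45H, against 1502.2, 1438.9 and 1451.5 in wild type, and fell 1.30-fold (log2 difference -0.38, SE 0.049, adjusted p = 6.5e-05). GAS3 had 259.8, 263.3 and 257.5 in H4R45H, against 337.1, 348.8 and 329.7 in wild type, and also fell 1.30-fold (log2 difference -0.38, SE 0.055, adjusted p = 0.00015). In both genes the strains lay apart on every array, though 80 of 540 genes as bright as GAS1 and 114 of 552 as bright as GAS3, these included, fell as far. The log2 difference of GAS1 was -0.22 after quantile normalization and -0.21 after cyclic loess, still called. GAS5 stood against them, with 888 ± 40.6 in H4R45H and 813 ± 42.1 in wild type (SD, n = 3 each) and a difference of 0.13 that was not called as deposited (adjusted p = 0.062) but was after quantile normalization (0.25), after cyclic loess (0.28), without wild type replicate 2 (0.17) and without H4R45H replicate 1 (0.16).

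The secreted glucanases and transferases of the wall gave smaller values. EXG2, a GPI-anchored exo-beta-1,3-glucanase, had 372.6, 384.7 and 422.9 in H4R45H, against 302.0, 280.2 and 273.1 in wild type, and rose 1.38-fold (log2 difference 0.46, SE 0.067, adjusted p = 0.00015). EXG1, the main secreted enzyme of that kind, had 1257 ± 47.3 in H4R45H and 1304 ± 66.9 in wild type (SD, n = 3 each) and was not called (-0.05), but it was called higher after quantile normalization (0.10) and cyclic loess (0.12) and lower after median centring (-0.16). BGL2, SCW4 and SCW10, a family of related glucan-modifying wall enzymes, were lower, with log2 differences of -0.18, -0.23 and -0.23 (adjusted p = 0.012, 0.0013 and 0.0098), and for each the strains did not overlap. These falls were about as large as the median fall of genes as bright, and none of the 3 was called after quantile normalization (-0.03, -0.05 and -0.09) or cyclic loess. BGL2 also lost its call without wild type replicate 2 (-0.14, adjusted p = 0.062, within 0.0021 to 0.88 over its alternatives).

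Among the 33, the beta-1,6-glucan genes KRE6 and KRE9 and the mannoprotein gene CWP2 showed no called difference as deposited. CWH41, a further gene needed for normal beta-1,6-glucan, was called lower and is given with the other glucan genes below. KRE6, a Golgi protein needed for beta-1,6-glucan, had 589 ± 20.3 in H4R45H and 619 ± 24.9 in wild type (SD, n = 3 each; -0.07, adjusted p = 0.25), and was called lower after median centring (-0.17). KRE9, a secreted protein of the same process, had 608 ± 24.4 in H4R45H and 557 ± 18.7 in wild type (SD, n = 3 each; 0.13, adjusted p = 0.055). Its strains did not overlap, and it was called higher after quantile normalization (0.19), cyclic loess (0.25) and without H4R45H replicate 2 (0.16). CWP2 had 1408 ± 120 in H4R45H and 1544 ± 62.8 in wild type (SD, n = 3 each; -0.14, adjusted p = 0.073), was called lower without H4R45H replicate 3 (-0.20) and after median centring (-0.24), and had a positive sign after quantile normalization and cyclic loess (0.04 and 0.05). In H4R45H the arrays were not equal at the top of the scale: replicate 1 was the lowest H4R45H array for 14 of the 19 wall genes in the brightest 10%, and its highest signal was 1919, against 2153 and 2156 on the other H4R45H arrays. The wild-type arrays reached 2288, 2339 and 2294, above every H4R45H array. How often replicate 1 was lowest over all bright genes was not counted.

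The chitin synthases were higher or undecided. CHS1, which repairs the wall after cell separation, had 409.0, 409.1 and 391.7 in H4R45H, against 256.0, 276.8 and 276.7 in wild type. These groups were far apart, and CHS1 rose 1.49-fold (log2 difference 0.58, SE 0.058, adjusted p = 1.1e-05). CHS2, which builds the primary septum, had 233.5, 235.8 and 221.5 in H4R45H, against 203.6, 192.5 and 176.8 in wild type, and rose 1.21-fold (log2 difference 0.27, SE 0.069, adjusted p = 0.0053), a call that was lost after median centring (0.17, adjusted p = 0.053). CHS3, the source of most wall chitin, had 487 ± 14.8 in H4R45H and 454 ± 21.4 in wild type (SD, n = 3 each; 0.10, adjusted p = 0.13) and was called after quantile normalization (0.14) and cyclic loess (0.22), with -0.00 after median centring.

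Set side by side, the integrity-induced genes had a median of 0.15 with 5 of 7 higher and 1 lower, and the housekeeping genes a median of -0.08 with 3 of 17 higher and 7 lower. The medians lay 0.23 apart, and 0.22 to 0.29 apart under the alternatives tried. Of all genes 37.1% were called higher and 29.1% lower, and of the brightest 10% of probe sets 9.26% and 65.9%. Under all 4 scalings 3 of the 7 were higher and 0 lower, and 2 of the 17 were higher and 3 lower. The same demand was met by 22.9% of all genes for higher and 22.3% for lower. Averaged over the 7 integrity-induced genes, the log2 signal was 9.96, 9.99 and 10.09 on the H4R45H arrays, against 9.38, 9.40 and 9.32 on the wild-type arrays. Averaged over the 17 housekeeping genes it was 9.42, 9.45 and 9.42 in H4R45H, against 9.53, 9.53 and 9.47 in wild type. The higher average of the integrity-induced genes rests on PIR3, GSC2 and PST1, since CIS3, HSP150, PIR1 and CRH1 had differences of -0.16 to 0.15. The housekeeping median turned positive after quantile normalization (0.04) and cyclic loess (0.06), so its direction depends on the scaling.

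**Figure D2:**
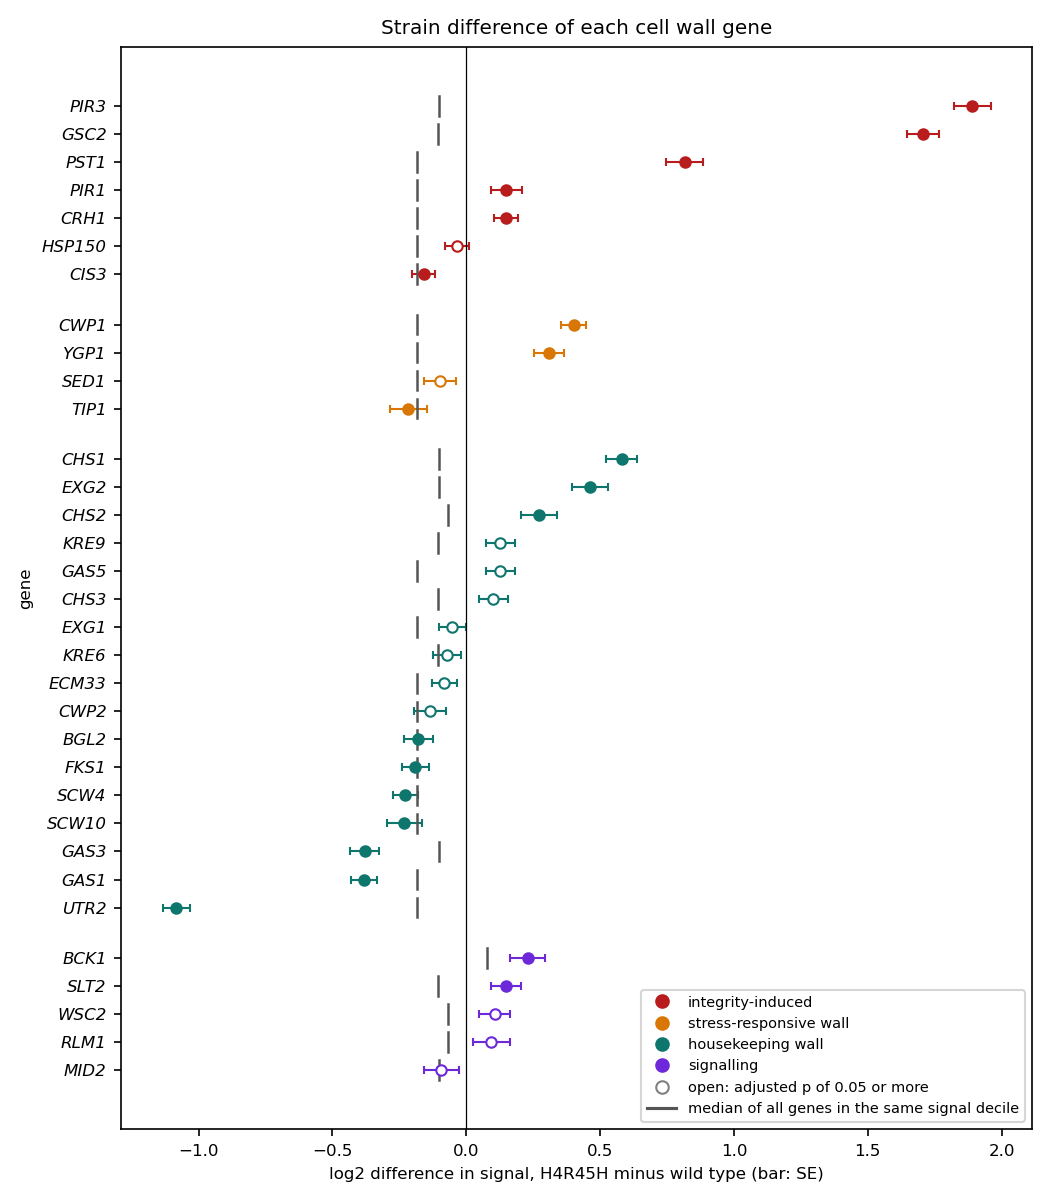
Log2 difference of each wall gene, H4R45H minus wild type, with SE (filled: adjusted p under 0.05). The short vertical line in each row is the median of all genes in the same 10% of signal. PIR3 (1.89), GSC2 (1.71) and PST1 (0.82) lie far to the right of that line and UTR2 (-1.08) far to its left, while BGL2, FKS1, SCW4 and CIS3 lie on or near it.

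**Figure D3:**
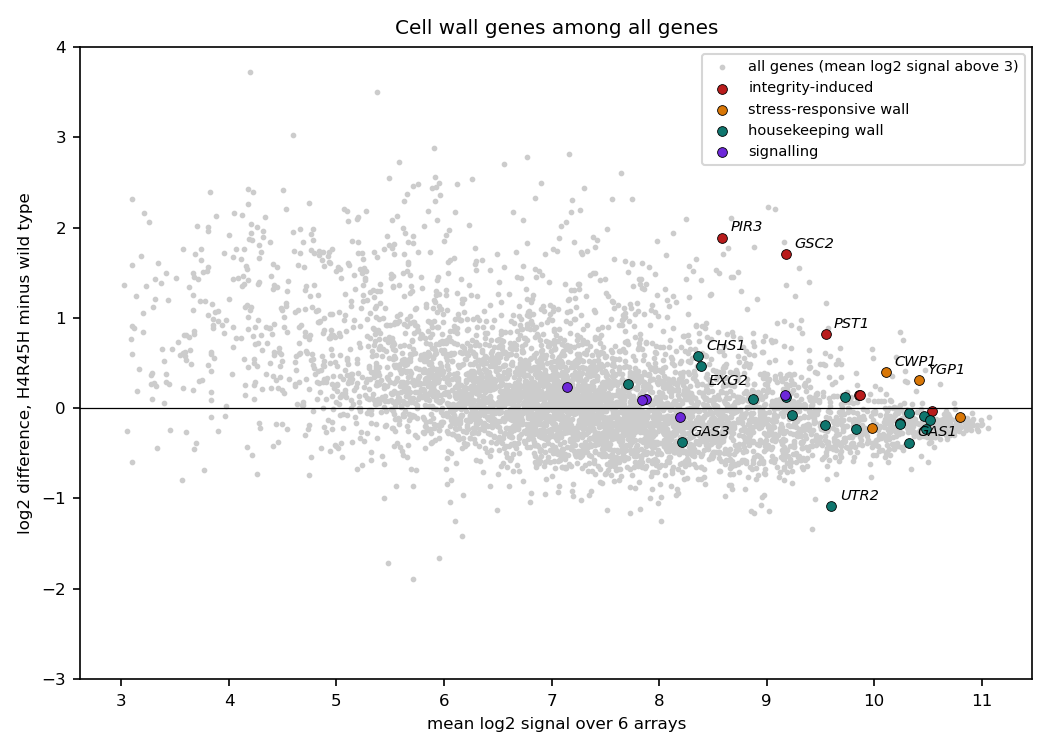
Mean log2 signal over 6 arrays against log2 difference for all genes with a mean above 3 (grey) and for the wall genes by role. The cloud tilts down toward bright genes, and PIR3, GSC2, PST1 and CWP1 stand above it there while UTR2 stands below.

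The 5 signalling genes among the 33 showed small differences at the level of mRNA. SLT2, the MAP kinase, had 580.4, 588.8 and 651.5 in H4R45H, against 550.1, 547.1 and 542.1 in wild type. It was higher without overlap (log2 difference 0.15, SE 0.056, adjusted p = 0.037), but the call was lost after median centring (0.05), without the variance trend, and without any 1 array other than H4R45H replicate 1 (adjusted p = 0.052 to 0.12). BCK1, the kinase at the head of the MAP kinase chain, had 148.3, 150.9 and 159.3 in H4R45H, against 131.6, 133.7 and 125.8 in wild type, and rose 1.17-fold (log2 difference 0.23, SE 0.065, adjusted p = 0.0095), which was not called after quantile normalization (0.11) or median centring (0.13). RLM1, the transcription factor, had 237 ± 9.37 in H4R45H and 222 ± 16.5 in wild type (SD, n = 3 each; 0.09, adjusted p = 0.26; -0.01 after median centring). Neither sensor among the 33 was called as deposited. WSC2 had a difference of 0.11 (adjusted p = 0.13). MID2 had one of -0.09 (adjusted p = 0.22) and was called lower after median centring (-0.20).

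**Figure D4:**
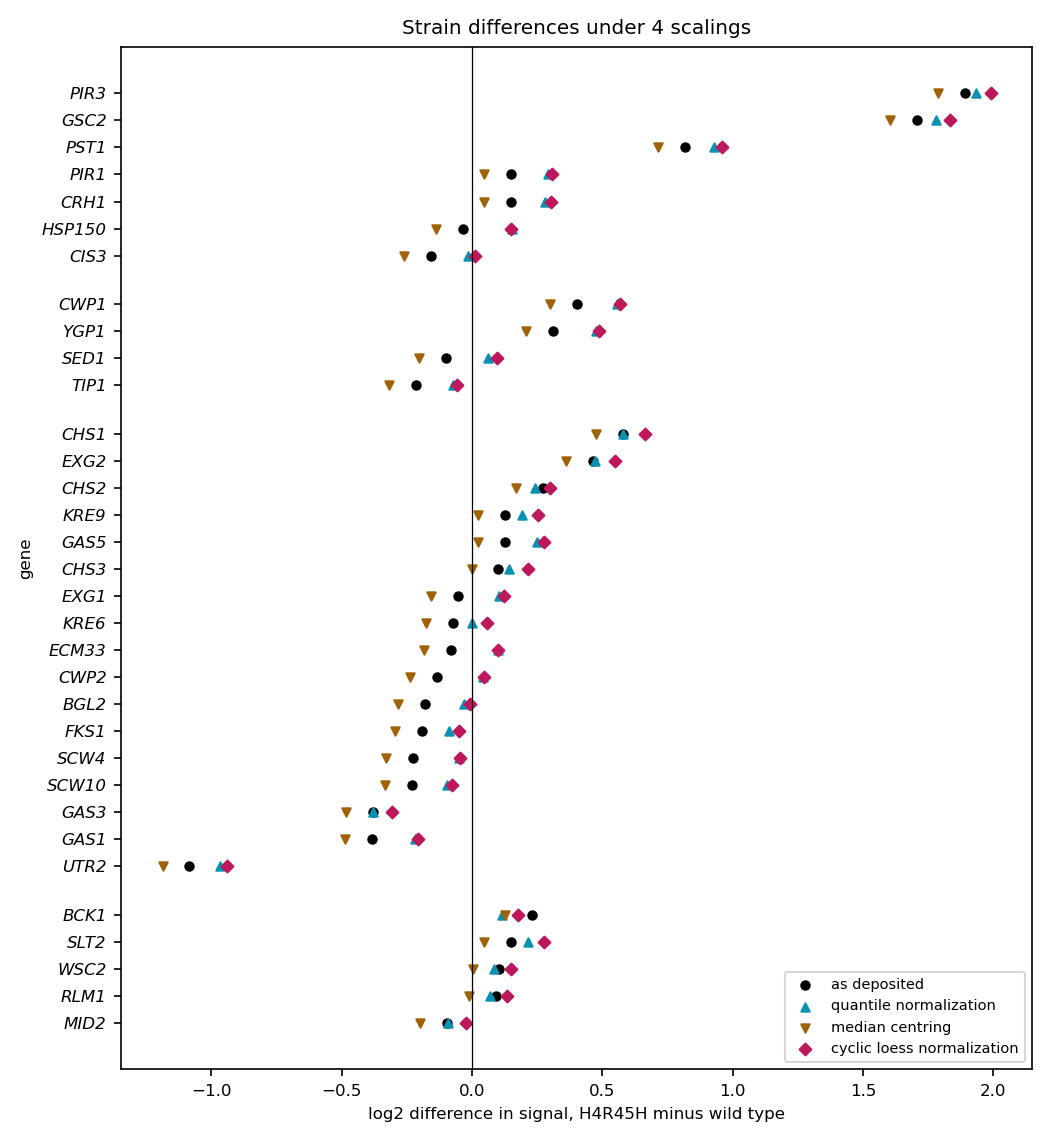
Log2 difference of each wall gene, H4R45H minus wild type, as deposited and after quantile normalization, median centring and cyclic loess. PIR3, GSC2, PST1, CWP1, YGP1, CHS1 and EXG2 stay to the right of 0 and UTR2, GAS1 and GAS3 to the left under all 4, while the markers of HSP150, ECM33, EXG1, CWP2 and SED1 straddle 0.

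Among the pathway's signalling genes, 22 further ones had 9 higher, 2 lower and 11 not called, with a median of 0.08. The share higher (40.9%) was near the 37.1% of all genes, and the share lower (9.09%) was below their 29.1%. Of the 22, 9 were among the dimmest 30%, where 4.06% to 12.4% of all genes were called lower. After quantile normalization and after median centring 6 of the 22 were lower, so that share depends on the scaling. RHO1 (-0.01, adjusted p = 0.93) and PKC1 (-0.10, adjusted p = 0.35), the GTPase and its kinase, were not called, nor was the sensor WSC1 (-0.02, adjusted p = 0.80). The dimmer sensor genes WSC4 (0.72, adjusted p = 8.3e-05) and MTL1 (0.50, adjusted p = 0.00028) were higher, WSC4 under all 4 scalings and MTL1 not after quantile normalization (0.13) or cyclic loess (0.20). RHO1 was called higher after quantile normalization and cyclic loess, and PKC1 lower after quantile normalization. The largest differences were in regulators of Rho1 and Slt2. BAG7, a GTPase-activating protein for Rho1, had 58.1 ± 11.8 in H4R45H and 17.0 ± 1.40 in wild type (SD, n = 3 each; log2 difference 1.76, 3.39-fold, adjusted p = 2.5e-06). It lies among the dimmest 10% of genes, of which 64.0% were called higher, and its log2 difference was 1.09 after quantile normalization. ROM1, an exchange factor for Rho1, had 118 ± 7.40 in H4R45H and 43.6 ± 0.866 in wild type (SD, n = 3 each; 2.70-fold, adjusted p = 1.7e-07). PTP2, a tyrosine phosphatase that acts on Slt2 and on the osmotic-stress kinase Hog1, had 480.3, 449.5 and 508.3 in H4R45H, against 240.7, 262.4 and 246.2 in wild type (1.92-fold, adjusted p = 8.4e-07). SDP1, a phosphatase specific to Slt2, had 69.5 ± 6.47 in H4R45H and 34.1 ± 5.86 in wild type (SD, n = 3 each; 2.06-fold, adjusted p = 5.8e-05). SDP1 is also dim, in a class where 62.6% of genes were called higher and 100 of 540 differed as far upward, and its log2 difference of 1.04 was 0.56 after quantile normalization. Other genes of the list did not rise: LRG1 (-0.18) and SMI1 (-0.28) were lower under all 4 scalings, and ROM2 and PTP3 were called under none. BEM2 was called only after median centring (lower) and MSG5 only after cyclic loess (higher). MKK1 (-0.16) was called lower under each scaling except as deposited. MKK2 (0.39) was higher, but not after quantile normalization or cyclic loess.

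Other known outputs of the pathway gave 3 of 4 measured genes higher and 0 lower, against 37.1% and 29.1% of all genes, with a median of 0.48. No probe set was named for the 5th, NCW2. YPS1, a GPI-anchored aspartyl protease, had 620.3, 625.1 and 625.7 in H4R45H, against 340.1, 344.7 and 367.8 in wild type (1.78-fold, adjusted p = 4.9e-07). Its relative YPS3 had 309 ± 18.0 in H4R45H and 202 ± 22.8 in wild type (1.53-fold, adjusted p = 0.00012), and KDX1, the paralogue of SLT2, had 146 ± 3.81 and 115 ± 0.115 (SD, n = 3 each; 1.28-fold, adjusted p = 0.00057). PRM5 was not called (0.17, adjusted p = 0.13). The protease family as a whole was read after its values were seen. YPS6 (2.17-fold) and YPS7 (1.11-fold, a call lost after median centring) were higher too, and MKC7 fell 1.49-fold (adjusted p = 1.3e-05).

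Of 16 other wall proteins 6 were higher, 5 lower and 5 not called, with a median of -0.06, shares of 37.5% and 31.2% against 37.1% and 29.1% of all genes. SPI1, a GPI-anchored protein known from weak acid stress, had 271.4, 309.9 and 396.2 in H4R45H, against 79.3, 96.7 and 85.1 in wild type. It rose 3.71-fold (log2 difference 1.89, SE 0.13, adjusted p = 7.1e-07). The SUN family divided: NCA3 had 209 ± 10.1 in H4R45H and 99.4 ± 5.04 in wild type and rose 2.10-fold (adjusted p = 5.8e-07), while SUN4, which takes part in septum separation, had 478 ± 31.1 in H4R45H and 743 ± 37.5 in wild type and fell 1.55-fold (adjusted p = 9.6e-06; SD, n = 3 in each group).

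Genes of daughter cell separation gave 6 of 8 lower, 0 higher and 2 not called, with a median of -0.37. All 8 lay in the brightest 30%, where 42.6% to 65.9% of all genes were called lower by class of brightness. They encode enzymes and regulators that the daughter cell uses to dissolve the septum. DSE3 had 181.8, 220.1 and 218.2 in H4R45H, against 359.0, 389.7 and 372.0 in wild type (fell 1.81-fold, adjusted p = 6.9e-06). DSE4, an endo-beta-1,3-glucanase, had 281.2, 369.3 and 322.2 in H4R45H, against 500.4, 510.7 and 520.5 in wild type (fell 1.58-fold, adjusted p = 7.4e-05). All their H4R45H values were below all wild-type values. AMN1, which acts in exit from mitosis in daughters, fell 1.36-fold (adjusted p = 0.00012) and the glucanase-like SCW11 fell 1.29-fold (adjusted p = 0.0039). EGT2 was called lower as deposited and after quantile normalization but not after cyclic loess, and the call of DSE2 was lost after both. CTS1, the chitinase of the same process, had 894 ± 63.1 in H4R45H and 852 ± 44.7 in wild type (SD, n = 3 each; 0.07, adjusted p = 0.34) and was called higher after quantile normalization and cyclic loess. In RNA from a whole culture, fewer cells at a stage and less RNA per cell cannot be told apart.

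**Figure D5:**
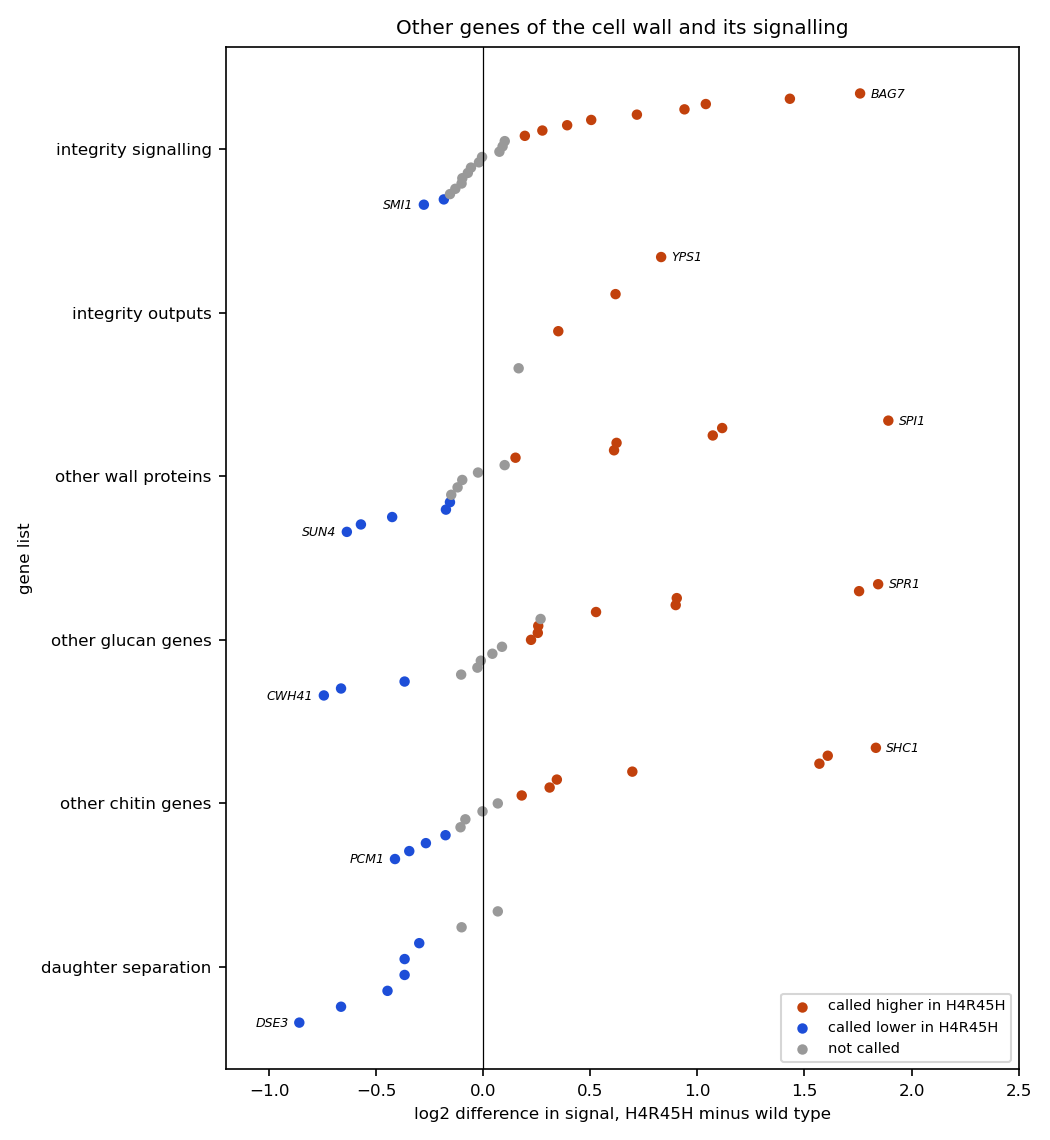
Log2 difference, H4R45H minus wild type, of 79 further wall genes in 6 lists, 3 of them in 2 lists, coloured by call. The lowest and the highest gene of each list are named where they were called. The daughter separation list has 6 genes called lower and 0 called higher, and the other lists hold calls on both sides or, for integrity outputs, only higher ones.

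Of 17 other glucan genes 8 were higher and 3 lower, and of 15 other chitin genes 7 were higher and 4 lower. The shares higher were 47.1% and 46.7%, against 37.1% of all genes, and the shares lower 17.6% and 26.7%, against 29.1%. Among the dimmest 30% were 7 of the glucan and 5 of the chitin genes. In that range 46.7% to 64.0% of all genes were called higher and 4.06% to 12.4% lower. Their largest rises were in dim genes known from spore wall formation and are given under the closing observations, except CHS6. CHS6, which carries Chs3 to the plasma membrane, had 114.8, 115.4 and 120.9 in H4R45H, against 68.4, 73.3 and 75.1 in wild type, and rose 1.62-fold (adjusted p = 1.3e-05). The enzymes that make the building block of chitin divided: GFA1, the first of the route, was higher (0.18, not called after median centring), while GNA1, PCM1 and QRI1, which follow it, were lower (-0.35, -0.41 and -0.18, with QRI1 not called after cyclic loess). CWH41, the glucosidase that starts trimming of N-linked sugars and is needed for normal beta-1,6-glucan, had 145 ± 2.41 in H4R45H and 244 ± 4.88 in wild type (SD, n = 3 each) and fell 1.68-fold (adjusted p = 2e-06), the largest fall on the glucan list. KEG1 (0.53) and KRE5 (0.26), also on that list, were higher under all 4 scalings, and BIG1 (0.22) was called higher only as deposited. DCW1, a GPI-anchored protein needed for wall assembly together with its relative DFG5, had 617 ± 16.1 in H4R45H and 401 ± 7.89 in wild type and rose 1.54-fold (adjusted p = 2.5e-06). DFG5 was not called as deposited (0.10, adjusted p = 0.15 by limma; SD, n = 3 in each group). It was called higher after quantile normalization (0.15) and cyclic loess (0.22).

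Markers of a cells, alpha cells and meiotic cells were read beside these results. The 4 a-cell markers summed to 2225 to 2456 per array in H4R45H and 2195 to 2269 in wild type, with 2 called higher and 1 lower. The 4 alpha-cell markers, 1 of which (SAG1) is itself a wall protein, summed to 309 to 366 in H4R45H and 131 to 141 in wild type, with 4 of 4 called higher. The 4 meiotic markers summed to 211 to 236 in H4R45H and 91.7 to 98.9 in wild type, also with 4 of 4 higher, and 3 of the alpha-cell and 4 of the meiotic markers were among the dimmest 30%, where 46.7% to 64.0% of all genes were called higher. None of the marker lists had a gene at 0 on all arrays. The part of these cell states in the differences of the wall genes was not tested.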

How the data were processed

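The deposited values are linear intensities, 1 signal per probe set and array, and the submitters' processing notes name MAS5. Which version and target value were used, and which probe sets were called present, is not given in the sources used here. Mean signals were 277 to 287 per array, and 0 columns of other samples were present. Whether the brightest signals are compressed is unknown, and the number of arrays limits the precision. Names came from the platform annotation, updated to RefSeq symbols, for 5498 of 5716 probe sets. Of several sets for a gene, the one brightest on average over the arrays was used.

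Signals were taken as log2 without further scaling, and 7 values at 0 were set to 0.1. The strain difference was fitted with limma 3.58.1 under R 4.3.3 (lmFit, then eBayes with a variance trend), and its two-sided p-values were Benjamini-Hochberg adjusted across the 5716 probe sets. The fit was tested on simulated data. The members, the lists and the housekeeping group were chosen with earlier results of these data known. All members are named, and of each further list up to 4 called genes by size, and others named beside them were chosen after their values were seen. Tried alternatives were other scalings, no variance trend, a pseudocount of 50, omission of the dimmest 25% of probe sets or of single arrays, the replicate block, other probe set choices and a 1.5-fold minimum.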

Additional observations from a re-analysis of the deposited data

How the results depend on the processing

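The median difference of all genes was 0.05 as deposited, -0.07 after quantile normalization, -0.05 after median centring and -0.01 after cyclic loess, and the share of higher among called genes was 56.1%, 42.2%, 44.0% and 50.3%. Of the 33 wall genes 12 were called higher and 9 lower as deposited, 7 higher and 16 lower after median centring, 17 higher and 3 lower after quantile normalization, 18 higher and 3 lower after cyclic loess, and 3 higher and 1 lower at 1.5-fold or more. Without 1 array they were 10 to 13 higher and 7 to 10 lower. With the replicate block they were 10 higher and 10 lower, PIR1 and SLT2 losing their calls and CWP2 gaining one. Same-numbered arrays' deviations correlated by 0.027, -0.017 and -0.034. These values show no visible shared effect, but cannot tell whether same-numbered arrays were handled together. The integrity-induced median was 0.29 after quantile normalization, 0.05 after median centring, 0.31 after cyclic loess and 0.13 to 0.21 without 1 array. The housekeeping median was 0.04, -0.19 and 0.06 in that order of scalings and -0.11 to -0.0769 without 1 array, and the medians stayed 0.22 to 0.29 apart. The sign turned after quantile normalization and cyclic loess for HSP150 (0.154 and 0.149), CWP2 (0.042 and 0.047), ECM33 (0.102 and 0.0987), EXG1 (0.102 and 0.122), KRE6 (0.000262 and 0.058) and SED1 (0.060 and 0.095), after cyclic loess for CIS3 (0.013), after median centring for CHS3 (-0.0015) and RLM1 (-0.010), and for HSP150 without 1 array, whose values ran from -0.0512 to 0.000223. Among the further lists, integrity signalling had 3 higher without the dimmest 25% and 5 at 1.5-fold, and 6 lower after quantile normalization and median centring, 5 after cyclic loess, 1 with the replicate block, 1 to 2 without 1 array and 0 at 1.5-fold. Other wall proteins had 3 lower after quantile normalization and cyclic loess, 3 to 6 without 1 array and 1 at 1.5-fold. Other glucan genes had 5 higher without the dimmest 25%, 4 higher at 1.5-fold, and 5 lower after quantile normalization and cyclic loess. Other chitin genes had 3 higher without the dimmest 25%, and 4 higher and 0 lower at 1.5-fold. Daughter separation had 1 higher after quantile normalization and cyclic loess and 2 lower at 1.5-fold. A 1.5-fold minimum and the filter on dim probe sets lower counts by their construction. The cause of the shifts between scalings was not tested.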

Other observations

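Genes known from the wall of spores, read together after their values were seen, were dim, and most were higher in H4R45H: of 8 such genes 7 were called higher. All 8 lay among the dimmest 30% of probe sets, and the highest signal of any was 118 in H4R45H and 67.0 in wild type. SPR1, a sporulation-specific exo-beta-1,3-glucanase, had 73.3, 65.9 and 70.1 in H4R45H, against 16.8, 18.7 and 23.3 in wild type (3.59-fold, adjusted p = 7.5e-07 by limma). FKS3, a relative of FKS1 and GSC2, had 49.8 ± 1.86 in H4R45H and 14.8 ± 1.10 in wild type (SD, n = 3 each; 3.38-fold, adjusted p = 3.3e-07). CRR1, the spore wall relative of CRH1 and UTR2, was 1.87-fold higher, and GAS4 was 1.86-fold higher as deposited and not called after quantile normalization. SHC1, which activates Chs3 in sporulation, was 3.56-fold higher, and the chitin deacetylase genes CDA1 and CDA2 were 2.97-fold and 3.05-fold higher at signals of 31.0 ± 3.92 and 17.7 ± 1.08 in H4R45H and 10.5 ± 1.62 and 6.17 ± 2.40 in wild type (SD, n = 3 each). Quantile normalization lowered the log2 difference of SPR1 to 1.25 from 1.84, of FKS3 to 1.02 from 1.75, of CDA1 to 0.69 from 1.57 and of CDA2 to 0.79 from 1.61, all still called. GAS2 had a difference of 0.09 (adjusted p = 0.50), which was called lower after quantile normalization and cyclic loess. Of all genes in the dimmest 30%, 46.7% to 64.0% were called higher by class of brightness. The 8 genes were put together after their values were seen, so the count is not read as a result about them. Among the 7 called higher, the genes as bright that rose as far ran from 28 of 540 for SPR1 to 212 of 517 for GAS4, these included.

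Several wall genes lie next to each other on a chromosome and differed in their strain difference. PIR1 (YKL164C) and PIR3 (YKL163W) are neighbours transcribed away from each other, with differences of 0.15 and 1.89. SCW10 (YMR305C), FKS3 (YMR306W) and GAS1 (YMR307W) follow each other, and FKS3 rose (1.75) between genes that were lower as deposited (-0.23 and -0.38). CWP2 and CWP1 are neighbours on the same strand, with -0.14 and 0.40. UTR2 (YEL040W), which fell, lies between YEF1 and CYC7, which rose, with differences of 1.32 (adjusted p = 5.2e-06) and 1.43 (adjusted p = 3.0e-05). GSC2 rose beside TIM21, which fell (-0.45, adjusted p = 0.00021). Over all measured neighbours of the 33 genes that are on no wall list, 19 of 52 were called higher (36.5%) and 15 lower (28.8%), close to the 37.1% and 29.1% of all genes, with a median of 0.07.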
